A study of Caenorhabditis elegans with 12 samples.

Results

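The comparison described here is that of whole C. elegans larvae lacking mir-71 with wild-type larvae, both raised on lawns treated with water. Its libraries were taken by their labels, 3 from the deletion strain MT12993 and 3 from N2, which are 6 of the 12 libraries of the study. The other 6 hold the same genotypes on sodium azide. MT12993 carries mir-71(n4115) and is a single strain, and the sources used here do not say how often it was outcrossed. By the study's methods, both genotypes were grown from timed egg pulses, collected at the L4 stage as biological replicates and sequenced after poly(A) selection. Of 20212 genes in the table, 14338 had enough reads on water to be tested.

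MicroRNAs are short RNAs that pair through their seed with sites in messenger RNAs and lower the stability or translation of those messages. miR-71 is expressed in many tissues of the worm and is known for its part in longevity, stress resistance and the asymmetry of a sensory neuron pair. The L4 is the last larval stage, in which hermaphrodites make sperm before they turn to oocytes, and yolk genes come on in the intestine near its end. The question put to the libraries is which transcripts differ when mir-71 is absent and no mitochondrial poison is given.

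Mature miR-71 is not measured by libraries of this kind. The genotype was taken from the labels, and the level of the host gene is described between the labelled groups. On chromosome I of WBcel235 the hairpin runs over 9379927 to 9380020 on the minus strand, within an intron of ppfr-1, the gene of a regulatory protein of phosphatase 4. ppfr-1 had 414.1, 451.7 and 418.4 CPM (depth-scaled counts, with TMM factors) in the 3 deletion libraries, against 101.0, 102.9 and 95.32 CPM in the 3 wild-type libraries. The groups were far apart and each was tight. The log2 fold change was 2.102 (SE 0.0911; edgeR quasi-likelihood test, adjusted p = 1.00e-05), a 4.29-fold higher level. Adjusted p-values from here on are from this test with Benjamini-Hochberg adjustment over all 14338 genes, and a gene is called where it is under 0.05. Of the other 5 genes of the phosphatase list (ppfr-2, ppfr-4, smk-1, pph-4.1 and pph-4.2), 0 were called, and rtcb-1, the gene beyond the 5′ end of ppfr-1, had a log2 fold change of -0.08 (adjusted p = 0.773).

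The libraries held 19255306 to 23937993 counts for the deletion, and 21062880 to 22831886 counts for wild type. In all, 173 genes were higher in the deletion and 195 lower, which is 1.21% and 1.36% of those tested (2.57% together). All 368 had libraries that did not overlap between the genotypes, and so did 22.9% of the genes tested. Most changes were below 2-fold: 68 of the higher and 70 of the lower genes reached 1 in absolute log2 fold change. The counts turned on single libraries. Without wild-type replicate 3 there were 25 higher and 42 lower, without deletion replicate 1 there were 44 and 36, without wild-type replicate 1 there were 76 and 70, without wild-type replicate 2 there were 58 and 107, and without deletion replicate 2 there were 268 and 247. Without deletion replicate 3 both counts stayed within 1.5 times of those above. The genes called in each of these 6 fits numbered 22 higher and 30 lower, and they are said below to have held in all 6. Of 148 called genes named by rule or named below, 87 lost their call without wild-type replicate 3 and 84 without deletion replicate 1. The balance of directions also depended on scaling. Centring the libraries on neuron markers gave 226 higher and 460 lower, on muscle markers 105 and 442, and on ribosomal protein genes 1054 and 88, and these moved the median of all genes by -0.10, -0.19 and 0.26 on the log2 scale.

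**Figure D1:**
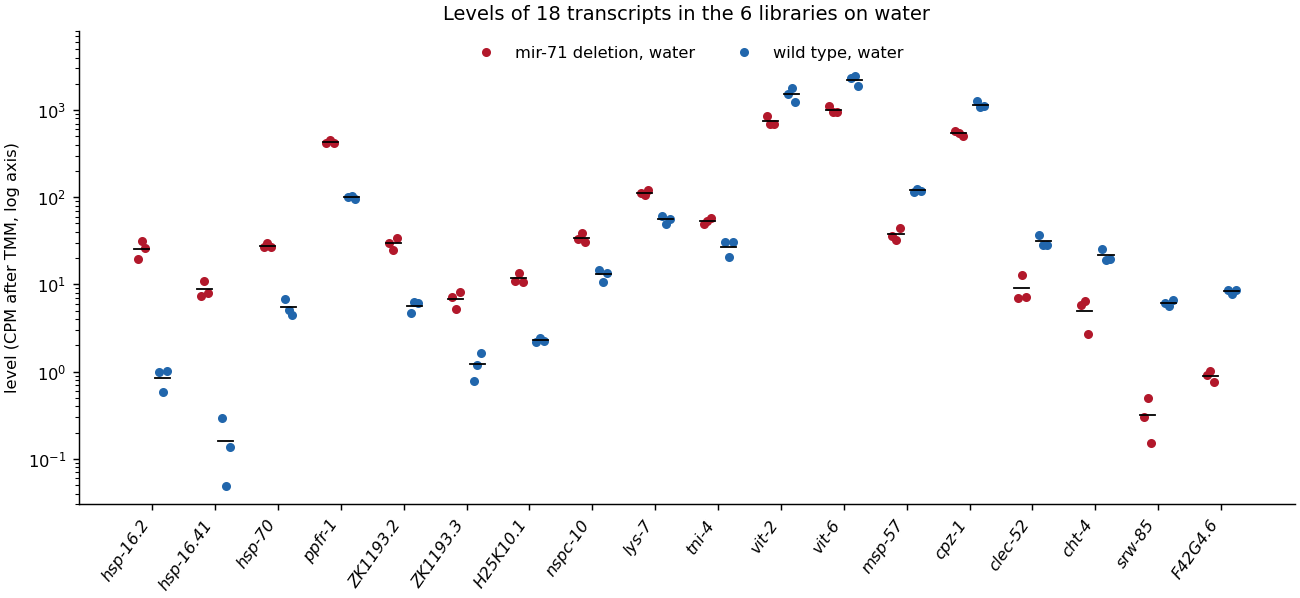
Level of 18 transcripts in each library on water (vertical axis, CPM after TMM scaling, log axis; red points, the 3 mir-71 deletion libraries; blue points, the 3 wild-type libraries; bars, means). The groups do not overlap for any of the transcripts drawn, from hsp-16.2 at 25.5 CPM in the deletion and 0.856 CPM in wild type to F42G4.6 at 0.893 CPM in the deletion and 8.37 CPM in wild type.

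The largest rises were in small heat shock genes. The HSP-16 proteins are small chaperones that bind unfolding proteins, and hsp-70 encodes an inducible cytosolic HSP70; in unstressed worms all are expressed at very low levels. hsp-16.2 had 19.49, 31.16 and 25.89 CPM in the deletion, against 0.982, 0.579 and 1.007 CPM in wild type. Every deletion library was well above every wild-type library, and the log2 fold change was 4.89 (SE 0.257, adjusted p = 3.28e-05). Its neighbour hsp-16.41, read from the other strand, had 7.379, 10.88 and 8.072 CPM in the deletion and 0.295, 0.0483 and 0.137 CPM in wild type (log2 fold change 5.74, SE 0.385, adjusted p = 1.63e-04). hsp-16.11 is a low member of the family, with 22, 37 and 26 counts in the deletion and 1 in each wild-type library, a ratio of 26 with an exact 95% counting interval of 8.60 to 128.6. hsp-70 had 26.91, 29.61 and 27.01 CPM in the deletion, against 6.727, 5.115 and 4.487 CPM in wild type (log2 fold change 2.36, SE 0.162, adjusted p = 1.66e-04). These 4 held in all 6 fits. The rest of the list did less: F44E5.5, an hsp-70 relative, had a log2 fold change of 0.97 and was not called, and hsp-16.1, hsp-16.48, hsp-16.49 and F44E5.4 had too few reads to test. In 9 members, then, 5 were tested and 4 called.

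Other chaperones were read beside these. Of 24 constitutive and organellar chaperones and co-chaperones tested, 1 was higher and 0 were lower, and the median was -0.09. That gene was hsp-17, a small heat shock protein gene (log2 fold change 0.56, adjusted p = 0.029), lost without any 1 of the 3 wild-type libraries, where adjusted p was 0.0749 to 0.152. Centring on ribosomal protein genes gave 7 higher and 0 lower, and centring on neuron or muscle markers 0 higher and 1 lower. Among 16 genes of the mitochondrial unfolded protein response, 0 were called and the median was -0.05; hsp-6, its mitochondrial HSP70, had 482.0, 418.8 and 550.8 CPM in the deletion and 485.4, 572.3 and 549.0 CPM in wild type, which overlapped. Among 17 genes of the endoplasmic reticulum stress response, 0 were called. Pairs of hsp-16 genes are almost the same in sequence, so reads can be shared between members, and hsp-70 lies inside uggt-2 on the opposite strand. uggt-2, a glucosyltransferase of glycoprotein folding, had a log2 fold change of 0.38 (adjusted p = 0.172). The sources used here do not say whether reads were counted by strand.

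The uncharacterized genes ZK1193.2, ZK1193.3 and ZK1193.4, which follow each other on the minus strand of chromosome X, were all higher. ZK1193.2 (406490 to 416535) had 30.26, 24.89 and 34.02 CPM in the deletion, against 4.665, 6.273 and 6.135 CPM in wild type (log2 fold change 2.38, SE 0.169, adjusted p = 1.89e-04). ZK1193.3 (417482 to 420361) had 7.206, 5.264 and 8.174 CPM in the deletion and 0.786, 1.206 and 1.648 CPM in wild type (2.49, SE 0.289, adjusted p = 0.00348). ZK1193.4 (422890 to 425625) had 5.122, 3.638 and 5.28 CPM in the deletion and 0.737, 0.820 and 0.733 CPM in wild type (2.60, SE 0.261, adjusted p = 0.0014). The lowest deletion library was above the highest wild-type library in each of these genes, and each held in all 6 fits. The genes around them did not share the change. col-19, an adult collagen gene on the other strand between ZK1193.3 and ZK1193.4, had a log2 fold change of -0.39 (adjusted p = 0.292). dve-1, which follows ZK1193.4 by 2.06 kb on the same strand and encodes a homeodomain protein of the mitochondrial unfolded protein response, had 24.18, 24.04 and 22.69 CPM in the deletion and 30.98, 21.62 and 26.55 CPM in wild type (-0.16, adjusted p = 0.619). The plot of fold change by position shows both neighbourhoods.

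**Figure D2:**
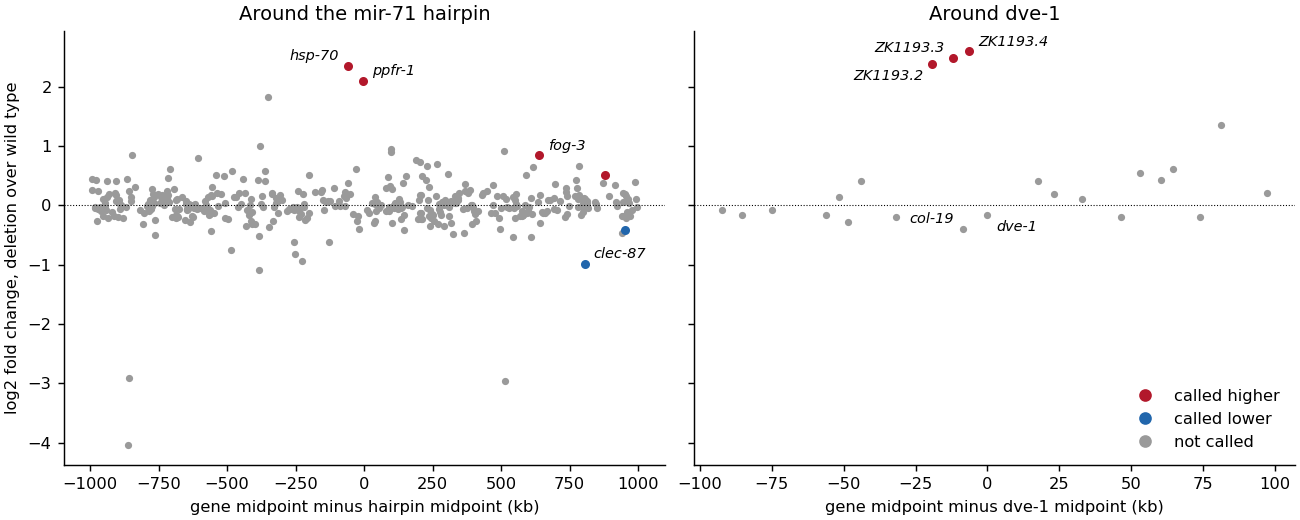
Log2 fold change, deletion over wild type on water (vertical axis), of the tested genes within 1 Mb of the mir-71 hairpin on chromosome I (left) and within 100 kb of dve-1 on X (right), by distance in kb (horizontal axis; red, called higher; blue, called lower; grey, not called). ppfr-1 and hsp-70 stand above their neighbours on the left and the ZK1193 genes on the right; cutl-7, which has no count in the deletion, lies below the axis and is not drawn.

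The locus of the deletion held a second rise. hsp-70 (9320412 to 9322481) lies 57.4 kb from the hairpin on the same chromosome, with a gap of 42.3 kb to ppfr-1. Of the 35 other genes tested within 100 kb of the hairpin, 0 were called, and their log2 fold changes ran between -0.41 and 0.95. Within 1 Mb, 4 of 415 tested genes were higher (0.96%) and 3 lower (0.72%), against 1.21% and 1.36% of all genes tested. Besides ppfr-1 and hsp-70, those higher were fog-3, a regulator of sperm fate, and the uncharacterized ZC247.2, and those lower were the lectin gene clec-87, rps-7 and cutl-7. fog-3 (log2 fold change 0.85, adjusted p = 0.0444) was called in 1 of the 6 fits, with an adjusted p of 0.161 without wild-type replicate 3. By chromosome, the higher share was lowest on I (14 of 2378) and highest on X (46 of 2055), and the lower share was highest on IV (57 of 2461) and lowest on I (21 of 2378).

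The X-linked rises came in part from a family of nematode-specific peptides. NSPC genes encode short secreted-type peptides of unknown function, and all 15 tested members lie on X. Of 18 members, 9 were higher and 0 lower, with a median log2 fold change of 1.20 where that of all genes was 0.00. The family summed to 309.3, 358.8 and 310.6 CPM in the deletion, against 173.9, 147.9 and 154.9 CPM in wild type, which did not overlap. nspc-10 had 32.99, 38.86 and 30.41 CPM in the deletion and 14.68, 10.71 and 13.64 CPM in wild type (log2 fold change 1.39, SE 0.15, adjusted p = 0.00209). Its neighbour nspc-9 had 32.34, 36.77 and 33.86 CPM in the deletion and 16.69, 14.52 and 13.69 CPM in wild type (1.20, SE 0.119, adjusted p = 0.00137). nspc-1, nspc-9, nspc-10 and nspc-19 held in all 6 fits; without wild-type replicate 3 the family's count fell to 4. nspc-13 with nspc-14 and nspc-18 with nspc-19 and nspc-20 were further runs of neighbours that were all higher. The exceptions were nspc-15, with 0.26, 0.465 and 1.83 CPM in the deletion and 3.58, 7.72 and 2.06 CPM in wild type (not called), and nspc-3, with a log2 fold change of -0.02. The copies are alike in sequence, so reads may be shared among them. The family was chosen after its values were seen.

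Transcripts of major sperm proteins were lower. The list was chosen after values were seen. MSPs form the cytoskeleton of the crawling sperm and signal to oocytes, and they are encoded by many near-identical genes on II and IV. All 29 tested members had a negative log2 fold change, 18 were called, and 28 had libraries that did not overlap, where 1756 of all 14338 genes tested did not overlap in this direction (22.9% in either direction). The summed level was 1062.2, 875.0 and 1269.3 CPM in the deletion, against 1753.6, 1803.1 and 1875.8 CPM in wild type. msp-57 had 35.81, 32.43 and 44.22 CPM in the deletion and 114.5, 125.2 and 118.9 CPM in wild type (log2 fold change -1.67, SE 0.123, adjusted p = 2.30e-04). msp-79 had 9.854, 7.547 and 10.97 CPM in the deletion and 30.69, 31.7 and 30.81 CPM in wild type (-1.72, SE 0.147, adjusted p = 6.20e-04). The decrease was uneven by location: 16 of 17 tested members on IV were lower, with a median of -0.99, and 2 of 12 on II, with a median of -0.52. Reads of identical copies cannot be assigned to one of them, so this split holds for the counts as deposited.

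The count of MSP calls was 7, 17 and 24 without deletion replicates 1, 2 and 3, and 10, 10 and 8 without wild-type replicates 1, 2 and 3, with a median between -0.90 and -0.58. msp-51, msp-53, msp-57, msp-76, msp-77, msp-78 and msp-79 held in all 6. In 1 fit over all 12 libraries, where the spread on azide enters, 0 MSP genes were called, and msp-57 had an adjusted p of 0.0865. Other sperm-line genes gave a mixed picture. In the NSPD family, peptides encoded near MSP genes, 3 of 9 tested members were lower, and 5 of 11 genes of the MSD, SSS and MSRP groups were lower. Without deletion replicate 1 these counts were 1 and 0, without wild-type replicate 1 they were 1 and 1, without wild-type replicate 2 they were 2 and 2, and without wild-type replicate 3 they were 1 and 0, and both were 0 in the fit of all 12 libraries. None of the 22 tested spe genes, which act in sperm formation and activation, was called, and their median was 0.07. The 28 genes of germline proliferation and meiosis had 0 calls and a median of 0.02. The NSPD, MSD, SSS, MSRP and spe lists were chosen after values were seen. In whole animals, fewer cells of a type and less RNA per cell cannot be told apart.

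Transcripts known from males were read beside these, in a list drawn up after values were seen. Of 7 genes of male sensory neurons (pkd-2, lov-1 and cwp-1 to cwp-5), the summed counts were 43, 71 and 29 in the deletion and 136, 34 and 45 in wild type. Of these, cwp-4 and cwp-5 were not lower in the deletion (83 against 48 and 45 against 19 counts over 3 libraries), and cwp-3 was at 0 there. lov-1, a polycystin of male mating neurons, had 0, 5 and 0 counts in the deletion and 28, 1 and 10 in wild type. pkd-2, its partner channel, had 4, 2 and 2 counts in the deletion and 34, 4 and 7 in wild type, and cwp-1 had 0, 1 and 0 in the deletion and 21, 3 and 2 in wild type. For pkd-2, lov-1, cwp-1, cwp-2 and cwp-3 the highest of the 6 libraries was wild-type replicate 1, and for cwp-4 and cwp-5 it was deletion replicate 2. The 6 other male genes (dmd-3, mab-3, mab-23, ram-5, her-1 and try-5) summed to 211, 331 and 203 counts in the deletion and 591, 337 and 317 in wild type. Of them dmd-3, a regulator of male tail shape, was lower (1, 2 and 2 counts in the deletion and 31, 12 and 19 in wild type; log2 fold change -3.66, adjusted p = 0.0216), and its call was lost without deletion replicate 1 (adjusted p = 0.0961), wild-type replicate 1 (0.0708) or wild-type replicate 3 (0.0769). Without wild-type replicate 1 the MSP median was -0.76 and 10 members were lower. The part of male animals in the sperm results was not tested.

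Yolk protein genes were lower as well. The 6 vitellogenins are made by the hermaphrodite intestine for uptake by oocytes, and 5 of 6 were lower, with a median log2 fold change of -1.19. They summed to 2478.6, 2184.3 and 2161.8 CPM in the deletion and 4931.8, 6020.5 and 4071.7 CPM in wild type, which did not overlap. vit-6 had 1105.3, 959.6 and 955.3 CPM in the deletion and 2336.3, 2484.9 and 1881.7 CPM in wild type (log2 fold change -1.15, SE 0.118, adjusted p = 0.00165). vit-2 had 842.8, 700.2 and 689.1 CPM in the deletion and 1530.4, 1800.1 and 1238.0 CPM in wild type (-1.03, SE 0.14, adjusted p = 0.00767). vit-1 also had non-overlapping libraries, with 140.2, 135.0 and 142.6 CPM in the deletion and 210.5, 426.2 and 220.7 CPM in wild type, but was not called (adjusted p = 0.074). vit-2, vit-3, vit-4 and vit-6 held in all 6 fits, and vit-5 was lost without any 1 of the 3 deletion libraries (adjusted p = 0.0729 to 0.104). In 1 fit over all 12 libraries 0 of 6 were called, with adjusted p between 0.366 and 0.57 for the 5 genes called here. Close similarity of vit-3, vit-4 and vit-5 means that reads may be shared among them.

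Other genes of late larval and adult life were read beside the yolk and sperm genes. Among oogenesis and eggshell genes all 27 tested had a negative log2 fold change, with a median of -0.42, and 1 was called. It was cpg-3, an eggshell proteoglycan (-0.65, adjusted p = 0.0343), which was lost without deletion replicate 1 (0.158) or 2 (0.0711) and without wild-type replicate 2 (0.0989) or 3 (0.133). The list had 8 and 11 lower genes when centred on neuron and muscle markers, 0 when centred on ribosomal protein genes, 4 without deletion replicate 3, and 0 or 1 without any other library. puf-5, an oocyte RNA-binding protein, had 23.5, 23.5 and 28.8 CPM in the deletion and 38.2, 57.5 and 35.6 CPM in wild type, and was not called. Of 5 adult cuticle genes, a list chosen after values were seen, 0 were called; col-19 had 207.4, 170.6 and 129.2 CPM in the deletion and 259.8, 182.5 and 222.5 CPM in wild type, which overlapped. Of 26 molting genes 0 were called, with a median of -0.06, and 5 and 6 were lower with libraries centred on neuron and muscle markers. Within the list fbn-1, a matrix protein of the molt, spread from 14.8 to 71.1 CPM within the deletion and from 96.8 to 128.0 CPM within wild type. Of 13 heterochronic timing genes 0 were called. lin-29, the factor that drives the larval-to-adult switch, had 29, 33.5 and 38.9 CPM in the deletion and 36.6, 37.2 and 32.6 CPM in wild type. The part of age at collection in the yolk and sperm results was not tested.

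**Figure D3:**
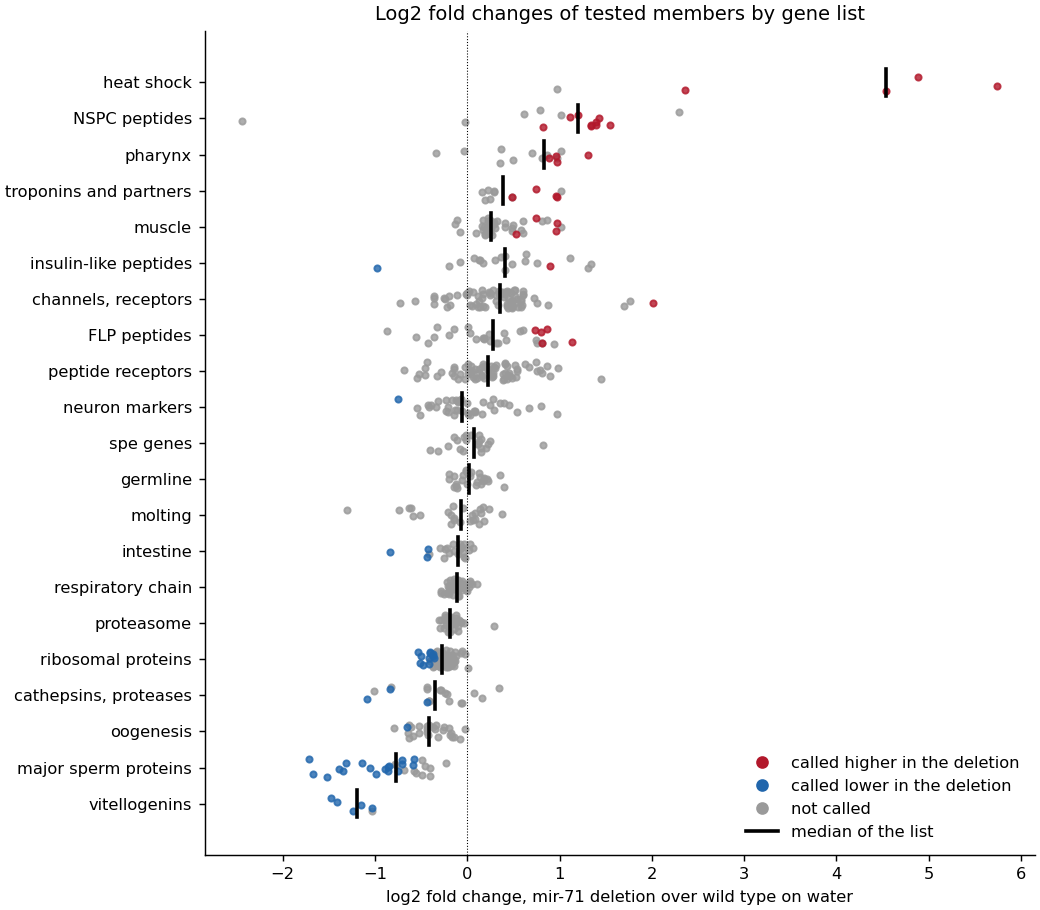
Log2 fold change of every tested member of 21 gene lists, deletion over wild type on water (horizontal axis; points, genes: red called higher, blue called lower, grey not called; black bar, median of the list). Heat shock and NSPC genes lie to the right, and the vitellogenins, MSPs and cathepsins to the left; under the scalings tried, medians of the intestine, proteasome, respiratory chain, molting and neuron lists turned positive when libraries were centred on ribosomal protein genes, and those of the spe and germline genes turned negative when centred on neuron or muscle markers.

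Some lysosomal and gut proteases were lower in the deletion. The cathepsins are proteases of lysosomes and of the gut lumen, and 3 of 20 tested proteases of the list were lower, 0 higher, with a median of -0.35; that median was negative under every scaling, between -0.53 and -0.09. Without deletion replicate 2 the count was 8. cpz-1, a cathepsin Z needed in molting, had 574.3, 547.8 and 501.8 CPM in the deletion and 1260.0, 1076.6 and 1120.1 CPM in wild type (log2 fold change -1.09, SE 0.0969, adjusted p = 7.39e-04). cpr-6, a cathepsin B relative, had 1046.0, 1017.0 and 918.6 CPM in the deletion and 1959.5, 1651.4 and 1710.7 CPM in wild type (-0.84, SE 0.0976, adjusted p = 0.00348). Both held in all 6 fits. cpl-1, cathepsin L, was lower by less (-0.44, adjusted p = 0.0356) and held in 0 of the 6, with adjusted p of 0.0514 to 0.168. Of 23 intestinal markers, 3 were lower, of which cpr-6 and cpl-1 are in both lists and elt-2 is the third. elt-2, the main transcription factor of the intestine, had 29.39, 29.18 and 28.08 CPM in the deletion and 37.37, 40.19 and 38.87 CPM in wild type (-0.43, adjusted p = 0.0465), and it too held in 0 of 6 (adjusted p = 0.0664 to 0.191). The intestinal median was -0.10.

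Genes of lipid metabolism gave 1 higher and 8 lower of 80 tested, with a median of -0.12 that turned to 0.14 when libraries were centred on ribosomal protein genes. lipl-1, a lysosomal lipase, had 1.65, 3.29 and 2.792 CPM in the deletion and 14.29, 7.045 and 9.111 CPM in wild type (log2 fold change -1.97, SE 0.313, adjusted p = 0.0153). acdh-2, an acyl-CoA dehydrogenase, had 3.733, 2.322 and 3.655 CPM in the deletion and 9.182, 7.865 and 9.889 CPM in wild type (-1.48, SE 0.213, adjusted p = 0.00983). fat-5, a desaturase that acts on palmitate, had 40.54, 32.2 and 46.4 CPM in the deletion and 70.17, 69.29 and 76.46 CPM in wild type (-0.86, SE 0.132, adjusted p = 0.0133). In each of these the groups were apart, as in every called gene. cpt-5, a carnitine acyltransferase, was lower by 0.80 on the log2 scale and sbp-1, the worm SREBP, by 0.62. acox-1.5, a peroxisomal oxidase, was the gene that rose (0.64, adjusted p = 0.014). None of these held in all 6 fits: without wild-type replicate 3 the adjusted p was 0.0566 for lipl-1, 0.0597 for acdh-2, 0.0786 for fat-5, 0.123 for cpt-5, 0.135 for sbp-1 and 0.0608 for acox-1.5, and no lower call of the list was left. Without deletion replicate 1 the list had 1 lower gene, without either of wild-type replicates 1 and 2 it had 3, and without deletion replicates 2 and 3 it had 7 and 6.

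Transcripts of cytosolic ribosomal proteins, the proteins of the translation machinery, leaned lower by a small amount. Of 81 genes, 80 had a negative log2 fold change, 64 had libraries that did not overlap and 11 were called, with a median of -0.27. Of all 14338 genes tested, 1756 did not overlap in this direction (22.9% in either direction) and 195 were called lower. The 81 genes summed to 139327.7, 131804.2 and 148330.5 CPM in the deletion, against 164313.6, 168757.4 and 177332.9 CPM in wild type. rps-0 had 2076.3, 2175.4 and 2028.7 CPM in the deletion and 3014.3, 2916.7 and 3014.9 CPM in wild type (log2 fold change -0.51, SE 0.0776, adjusted p = 0.0131), and rps-22 was lower by 0.54 (adjusted p = 0.0167). 0 of these genes held in all 6 fits, and the count was 0, 7 and 17 without deletion replicates 1, 2 and 3 and 2, 2 and 0 without wild-type replicates 1, 2 and 3. The 66 mitochondrial ribosomal protein genes had 0 calls and a median of -0.01. Proteasome subunits had 32 of 33 negative values, 26 without overlap and a median of -0.18, and 39 nuclear genes of the respiratory chain had 34 negative and a median of -0.11. In both lists 0 were called, and both medians were positive when libraries were centred on the ribosomal protein genes (0.07 and 0.14).

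Muscle genes leaned towards higher levels. The 40 muscle markers had 37 positive log2 fold changes, a median of 0.26 and 4 called higher: the troponin genes tni-4, tnc-2 and tni-3, and pat-2, the alpha integrin of muscle attachments. tni-4, a troponin I of the pharynx, had 49.83, 52.83 and 57.83 CPM in the deletion and 30.74, 20.51 and 30.31 CPM in wild type (log2 fold change 0.98, SE 0.153, adjusted p = 0.014). tnc-2, the pharyngeal troponin C, had 26.35, 37.66 and 33.66 CPM in the deletion and 20.18, 12.59 and 17.35 CPM in wild type (0.96, SE 0.187, adjusted p = 0.0317). The groups were apart in both genes, as in every called gene, with a narrow gap for tnc-2. Of other troponin genes, tni-3 was higher by 0.75, and unc-27, tni-1 and tnt-2 had log2 fold changes of 0.29, 0.24 and 0.29 and were not called. csq-1, the calsequestrin that buffers calcium in the muscle reticulum, was higher by 0.49 (adjusted p = 0.0462), and all 12 genes of a thin filament and calcium list, chosen after values were seen, were positive.

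Pharyngeal genes had a higher median than the muscle markers as a whole. Of 17 members of a pharynx list chosen after values were seen, 14 were tested, 12 were positive, 4 were called higher and the median was 0.83. The called genes were tni-4, tnc-2, ceh-34, a homeobox gene of the pharynx (1.31, adjusted p = 0.0394), and phat-6, a gland protein, with 11.11, 10.45 and 10.05 CPM in the deletion and 4.32, 6.08 and 6.73 CPM in wild type. The pharyngeal myosins myo-1 and myo-2 spread widely within the deletion and were not called. myo-2 had 158.7, 86.3 and 228.7 CPM in the deletion and 100.4, 76.3 and 93.8 CPM in wild type, and deletion replicate 2 was within the wild-type range. The same library was lowest for unc-54, the main body wall myosin, with 5439.6, 3328.9 and 6677.5 CPM in the deletion and 3349.6, 3639.0 and 3143.8 CPM in wild type. Without deletion replicate 2 the muscle list had 19 higher of 40 and the pharynx list 7 of 14, and without wild-type replicate 3 both had 0. The muscle list had 6 higher under the neuron centring, 3 under the muscle centring and 23 under the ribosomal protein centring. Without the remaining libraries the muscle list had 1 to 3 and the pharynx list 1 or 2. The adjusted p without wild-type replicate 3 was 0.0531 for tni-4, 0.124 for tnc-2, 0.191 for tni-3, 0.135 for pat-2, 0.19 for csq-1 and 0.145 for ceh-34. The medians of the muscle, thin filament and pharynx lists were positive under all scalings tried. The muscle centring uses the muscle list itself and sets its level near 0, so the sign of its median there (0.06) tells nothing. The pharynx list shares tni-4 and tnc-2 with the muscle list.

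Peptide signalling genes were higher in a few members. Of 30 tested FLP neuropeptide genes 5 were higher and 0 lower (median 0.28). flp-17, which encodes a peptide of the BAG oxygen and carbon dioxide neurons, had 6.121, 6.154 and 5.737 CPM in the deletion and 2.946, 2.702 and 2.564 CPM in wild type (log2 fold change 1.13, SE 0.176, adjusted p = 0.014). flp-1, flp-9, flp-11 and flp-13 were higher by 0.74 to 0.87. crf-1, related to corticotrophin releasing factor, had 28.87, 26.94 and 31.43 CPM in the deletion and 17.04, 14.19 and 13.96 CPM in wild type (0.95, SE 0.125, adjusted p = 0.00675). Of 51 NLP genes 2 were higher (nlp-16 and nlp-3) and 2 lower (nlp-20 and nlp-24), and the NLP median of 0.14 turned to -0.02 when libraries were centred on muscle markers. ins-6 was the insulin-like gene that rose (4.992, 4.606 and 4.874 CPM in the deletion and 2.504, 2.654 and 2.61 CPM in wild type) and ins-37 the one that fell (3.603, 3.096 and 3.351 CPM in the deletion and 6.825, 6.128 and 6.822 CPM in wild type). Receptors for such peptides had 0 calls of 72 tested, with 56 positive. Of 74 ion channel and transmitter receptor genes, 1 was called higher, acr-25 (1.35%, against 1.21% of all genes tested). Of these 74, 60 were positive, with a median of 0.36. Of all 14338 genes tested, 7266 were positive. Without deletion replicate 1 or 3 or wild-type replicate 2 or 3 the channel and receptor list had 0 calls, and when centred on ribosomal protein genes it had 13 higher.

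None of the peptide calls held in all 6 fits, and the FLP count moved with scaling: 8 higher and 1 lower with libraries centred on neuron markers, 0 and 1 on muscle markers, and 14 and 0 on ribosomal protein genes. Without wild-type replicate 3 no FLP, NLP or insulin-like gene was called, with an adjusted p of 0.0836 for flp-17, 0.0545 for crf-1, 0.0769 for nlp-16, 0.146 for ins-6 and 0.108 for ins-37. The FLP count was 1, 5 and 5 without deletion replicates 1, 2 and 3, and 3 and 1 without wild-type replicates 1 and 2. Neuron markers summed to 688.5, 720.9 and 673.3 CPM in the deletion and 859.9, 728.8 and 743.3 CPM in wild type, which did not overlap. Of 40 tested, 1 was called, mec-7, the tubulin of touch neurons (-0.75, adjusted p = 0.0356, called in 2 of the 6 fits and at 0.142 without deletion replicate 1).

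C-type lectins and lysozymes, secreted proteins of which many act in defence, changed in both directions. Of 123 tested lectin genes 3 were higher and 12 lower, a balance that depended on scaling: 5 and 23 when centred on neuron markers, 2 and 22 on muscle markers, and 15 and 7 on ribosomal protein genes. clec-52, expressed in the gut, had 7.076, 12.77 and 7.26 CPM in the deletion and 37.32, 28.23 and 28.57 CPM in wild type (log2 fold change -1.79, SE 0.228, adjusted p = 0.00565). clec-210 had 4.731, 6.889 and 4.518 CPM in the deletion and 21.7, 15.34 and 17.08 CPM in wild type (-1.74, SE 0.203, adjusted p = 0.00348). clec-169 went the other way, with 62.98, 71.26 and 65.14 CPM in the deletion and 34.67, 35.37 and 33.19 CPM in wild type (0.95, SE 0.0942, adjusted p = 0.00137). These and clec-197 held in all 6 fits, and the lower count of lectins was 5, 18 and 10 without deletion replicates 1, 2 and 3 and 7, 8 and 4 without wild-type replicates 1, 2 and 3. lys-7, a lysozyme controlled by DAF-16, had 110.6, 106.1 and 120.5 CPM in the deletion and 61.43, 49.36 and 56.13 CPM in wild type (1.01, SE 0.108, adjusted p = 0.00208) and held as well. Among 22 tested DAF-16 targets it was the single call. In the lysozyme list 1 of 30 tested genes was higher and 2 were lower, with a median of 0.01. The list summed to 5663.4, 5774.5 and 5329.4 CPM in the deletion and 7144.0, 6472.2 and 6662.3 CPM in wild type. No lower call of the lysozyme list was left without deletion replicate 1 or wild-type replicate 3. The pair clec-186 and clec-187, neighbours on IV, was lower by 0.71 and 0.64, with an adjusted p of 0.0597 and 0.0898 without wild-type replicate 3.

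Several further genes changed strongly and held in all 6 fits. H25K10.1, a purple acid phosphatase, had 10.85, 13.7 and 10.71 CPM in the deletion and 2.16, 2.461 and 2.243 CPM in wild type (log2 fold change 2.36, SE 0.179, adjusted p = 2.55e-04). R02C2.7, uncharacterized, had 4.775, 5.419 and 2.894 CPM in the deletion and 0.638, 0.531 and 0.412 CPM in wild type (3.05, SE 0.334). dpf-6, a dipeptidyl peptidase family member, had 28.43, 33.4 and 32.8 CPM in the deletion and 12.37, 12.88 and 12.86 CPM in wild type (1.31, SE 0.115). Of the falls, F42G4.6, uncharacterized, had 0.912, 1.006 and 0.762 CPM in the deletion and 8.593, 7.817 and 8.699 CPM in wild type (-3.21, SE 0.204, adjusted p = 1.29e-04). srw-85, annotated as a non-coding transcript of a chemoreceptor gene, had 0.304, 0.503 and 0.152 CPM in the deletion and 6.138, 5.645 and 6.547 CPM in wild type (-4.18, SE 0.323). cht-4, a chitinase gene, had 5.86, 6.464 and 2.691 CPM in the deletion and 25.73, 19.01 and 19.78 CPM in wild type (-2.09, SE 0.272). aat-1, an amino acid transporter, was lower by 1.01, and the neighbours F42A10.6 and F42A10.7 were lower by 1.34 and 1.25.

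A set of 11 called genes was picked for having at most 3 counts over the 3 deletion libraries on water. They passed the expression filter through their wild-type counts, so their near absence from the deletion follows from the choice. Over the 3 deletion libraries on water they had 0, 1 and 2 counts in sum, against 728, 370 and 296 in wild type. F59B2.12, uncharacterized, had 0 counts in every deletion library and 83, 60 and 60 in wild type, so it was at least 73.7-fold lower in the deletion against a floor of 3 counts over the group. On the same floor K12H6.9 was at least 42.5-fold lower, C05B5.11 at least 41.4-fold, F26D2.16 at least 29.8-fold, clec-207 at least 23.6-fold, K12H6.4 at least 22.9-fold and C16C8.19 at least 13.4-fold. try-8, a trypsin-like protease, had 1 count in the deletion and 52, 25 and 22 in wild type, a ratio in wild type over the deletion of 107.9 with an exact 95% counting interval of 18.9 to 4303.1. These intervals and floors cover counting error only. The plot of raw counts shows that the same genes were present in wild type on azide (2868, 2286 and 1103 counts in sum) and, on azide, in deletion replicate 1 (472 counts) far more than in deletion replicates 2 and 3 (10 and 14 counts).

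**Figure D4:**
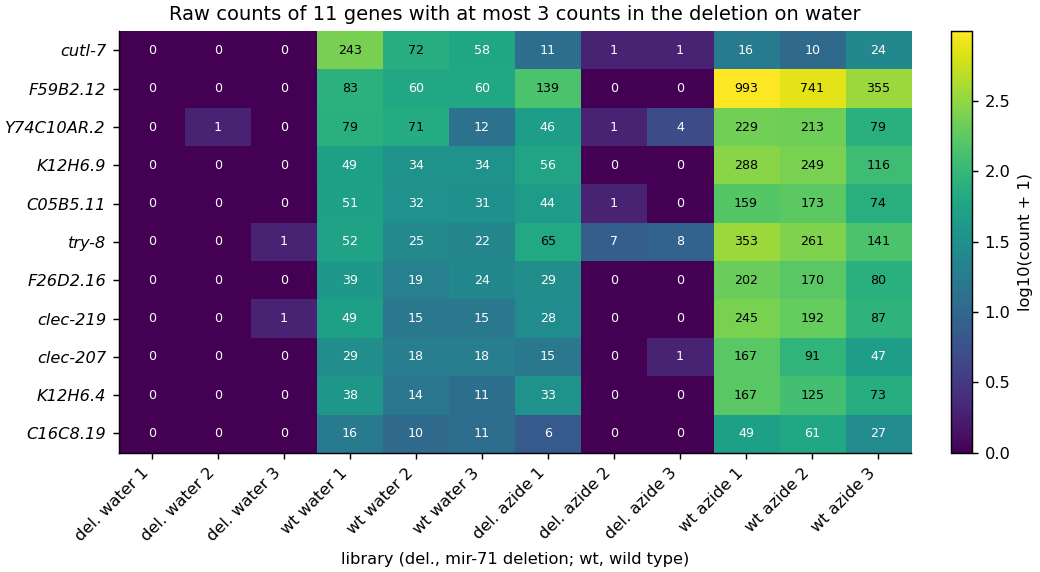
Raw counts of the 11 genes with at most 3 counts over the 3 deletion libraries on water (rows, genes; columns, all 12 libraries; colour, log10 of the count plus 1; numbers, the counts). Deletion libraries on water sum to 0, 1 and 2 counts and wild-type libraries on water to 728, 370 and 296; on azide, deletion replicate 1 has 472 counts and deletion replicates 2 and 3 have 10 and 14.

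Of these 11 genes, F59B2.12, K12H6.9, C05B5.11, try-8 and F26D2.16 held in all 6 fits. The call of clec-207 was lost without wild-type replicate 3 (adjusted p = 0.0512) and that of clec-219 without deletion replicate 1 (0.0905). Y74C10AR.2 was lost without any 1 of the deletion libraries (0.0501 to 0.0938), and so was cutl-7 (0.0572 to 0.145). K12H6.4 and C16C8.19 were lost without deletion replicate 1 (0.0952 and 0.0905) and without any 1 of the wild-type libraries (0.0544 to 0.075 and 0.0589 to 0.0946). All 11 genes were highest, among the wild-type water libraries, in replicate 1, as were pkd-2, lov-1, cwp-1, cwp-2, cwp-3 and cwp-5 but not cwp-4. On azide, pkd-2, lov-1, cwp-1, cwp-2 and cwp-3 summed to 10, 6 and 12 counts in the deletion and 93, 43 and 55 in wild type. cwp-4 went the other way there, with 30, 33 and 24 counts in the deletion and 12, 1 and 7 in wild type. All 7 genes of male sensory neurons summed on azide to 47, 51 and 42 counts in the deletion and 117, 53 and 75 in wild type. The 6 other male genes summed on azide to 226, 197 and 172 counts in the deletion and 159, 123 and 181 in wild type. The 11 genes summed there to 472, 10 and 14 in the deletion and 2868, 2286 and 1103 in wild type. The part of male animals in the set of 11 was not tested. cutl-7, a cuticlin-like gene, belongs with several cuticle genes that were much higher in wild-type replicate 1 than in the other wild-type libraries: it had 243, 72 and 58 counts there and 0 in each deletion library, at least 135.5-fold lower. cut-3, a cuticlin of alae, had 0.825, 0.89 and 0.711 CPM in the deletion and 24.8, 9.26 and 3.52 CPM in wild type, and col-132, a collagen gene, had 0.868, 0.194 and 0.203 CPM in the deletion and 21.3, 6.27 and 3.48 CPM in wild type. Although the groups were apart, both calls were lost without any 1 of the deletion libraries (adjusted p = 0.136 to 0.204 for cut-3 and 0.0905 to 0.215 for col-132), and the 142 tested collagen genes had 5 lower and 0 higher. The lower count was 0, 8 and 4 without deletion replicates 1, 2 and 3, 2, 4 and 1 without wild-type replicates 1, 2 and 3, and 27 under the neuron centring, 33 under the muscle centring and 3 under the ribosomal protein centring.

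A list of 10 genes that the study or earlier work examined as miR-71 targets was tested in full, and 0 were called: dve-1, dct-1, atg-2, hsp-6, daf-2, unc-31, tir-1, age-1, hbl-1 and lin-42. Their median log2 fold change was -0.10, which turned to 0.15 when libraries were centred on ribosomal protein genes. The widest were hbl-1, a heterochronic zinc finger gene, with 6.86, 6.08 and 7.31 CPM in the deletion and 9.23, 10.8 and 9.29 CPM in wild type (-0.54, SE 0.152, adjusted p = 0.0988), and unc-31, which acts in dense-core vesicle release, with 12.9, 9.6 and 10.0 CPM in the deletion and 8.79, 8.15 and 7.74 CPM in wild type (0.40, SE 0.16, adjusted p = 0.236). In both genes the deletion and wild-type libraries did not overlap, as in 22.9% of all genes tested. atg-2 and age-1 were within 0.10 of 0 on the log2 scale.

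The azide libraries share no sample with the water libraries, so they allow the water calls to be read again in other animals. On azide, 16.6% of 14433 tested genes were higher and 14.8% lower in the deletion. Of the 166 genes higher on water and tested on azide, 122 were higher there (73.5%) and 4 lower. Of the 191 genes lower on water and tested on azide, 72 were lower there (37.7%) and 7 higher, so 194 were called alike. Leaving out 1 water library gave 37 to 274 such genes, the lowest without wild-type replicate 3 and the highest without deletion replicate 2 (58 without deletion replicate 1, 89 and 97 without wild-type replicates 1 and 2, 172 without deletion replicate 3). Of the 52 genes that held in all 6 fits, 50 were tested on azide, 32 were called in the same direction and 0 in the opposite one. ppfr-1 had 566.6, 568.1 and 823.3 CPM in the deletion on azide and 109.6, 104.7 and 108.9 CPM in wild type on azide; levels on azide come from a fit with its own scaling.

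**Figure D5:**
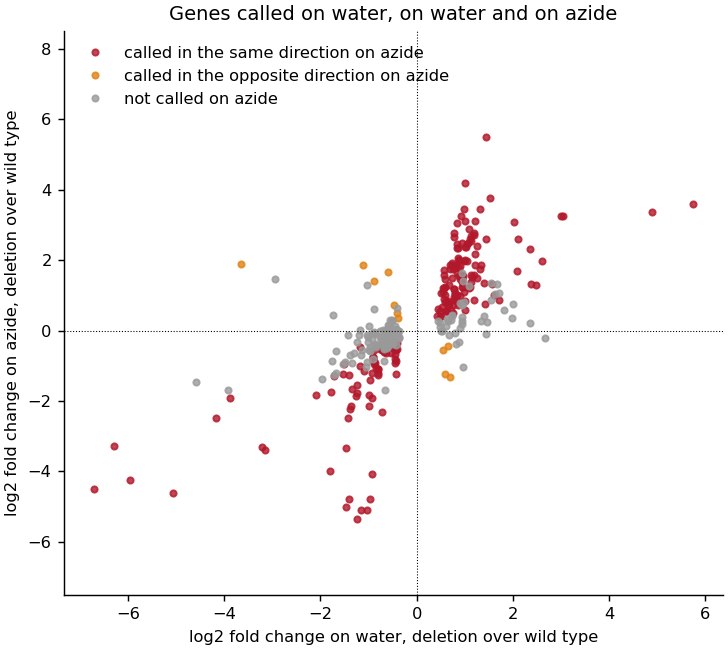
Log2 fold change of the deletion over wild type on water (horizontal axis) and on azide (vertical axis) for 349 genes called on water and tested on azide, without those whose absolute log2 fold change on water was 7 or more (red, called in the same direction on azide; orange, called in the opposite direction; grey, not called on azide). Higher genes on water were called higher on azide in 122 of 166 and lower genes on water were called lower on azide in 72 of 191.

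hsp-16.2 was high in the deletion in both settings, and hsp-70 was not. On azide, hsp-16.2 had 13.43, 10.09 and 11.61 CPM in the deletion and 0.837, 0.9 and 1.589 CPM in wild type. hsp-70 had 7.317, 7.226 and 6.682 CPM in the deletion and 5.862, 7.091 and 5.312 CPM in wild type on azide (log2 fold change 0.22, adjusted p = 0.405). Those levels lay far below the 26.91 to 29.61 CPM of the deletion on water. Among the genes called in opposite directions were dmd-3 (-3.66 on water and 1.88 on azide), nhr-74, a nuclear hormone receptor gene (-1.12 and 1.85), cdh-3, a cadherin gene (-0.89 and 1.41), and haf-4, an ABC transporter of lysosome-related organelles, (-0.41 and 0.51). In this order, their water calls held in 3, 3, 2 and 1 of the 6 fits that leave out a water library.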

How the data were processed

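RNA was extracted from whole L4 larvae, selected for poly(A) and sequenced. Per the submitters' processing notes, the authors trimmed reads with cutadapt 1.9.1, aligned them to WBcel235 with HISAT2 2.0.1, counted them per gene with HTSeq 0.6.1 and tested them with DESeq2, of a version that the sources used here do not name. The deposited table holds raw counts for 12 libraries, which were used here. The same table holds FPKM values that the authors computed from the counts and gene sizes in bases, and neither was used for a test. The sources used here do not say whether reads were counted by strand. There were 0 columns of samples outside the series and 0 rows without a gene name.

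Genotype and treatment were taken from the sample titles. The 6 water libraries held 19255306 to 23937993 counts and were fitted alone with edgeR 4.0.16 (R 4.3.3, limma 3.58.1), using TMM factors, the edgeR expression filter (minimum count 10, minimum total 15), a robust quasi-likelihood fit and a two-sided quasi-likelihood F test. Benjamini-Hochberg adjustment ran over the 14338 genes kept, and genes with an adjusted p under 0.05 were called. The SE of a log2 fold change is its absolute value divided by the square root of F. CPM values use TMM-scaled library sizes and compare libraries for 1 gene, not levels between genes. The azide libraries were fitted alone in the same way, and the difference of the genotype effect between treatments was tested as an interaction in 1 fit of all 12. Summaries used Python 3.11.15 and pandas 2.3.3, and the fit was tested on simulated data with 200 changed genes. Intervals and floors of counts cover counting error only.

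The comparison, the gene lists and the genes named were chosen with earlier results of these data known. Genes were named where they belonged to the phosphatase 4 or the reported miR-71 list, were among the 12 largest rises or falls with no overlap and a mean of 5 CPM or more in the higher group, were among the 3 largest called rises or falls of a list, lay within 1 Mb of the hairpin, or had at most 3 counts over a genotype. The NSPC, NSPD, MSP, MSD, spe, pharynx, thin filament, adult cuticle and male lists, further neighbours and genes called without any 1 library were added after values were seen. Gene positions are WBcel235 and came from matching symbols, with 18371 of 20212 found in the annotation. The study describes the libraries of a group as biological replicates, so p-values measure the spread between 3 cultures a side. Alternatives were other scaling factors, marker-centred scalings, other filters, a replicate block, DESeq2 1.42.0, a fit of all 12 libraries and leaving out each library. Sites of miR-71 and promoter motifs were planned and were not analysed here, and no sequences are printed.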

Additional observations from a re-analysis of the deposited data

Results flagged for a closer look

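For 28 of the 148 called genes named (18.9%), the genotype effect differed between azide and water by the interaction in 1 edgeR fit of all 12 libraries, with adjusted p over all genes. Of all 15048 genes in that fit 1575 passed (10.5%), and of the 368 genes called on water 85 did (23.1%); these were called on the same water libraries that enter the interaction. Each difference below is the log2 fold change on azide minus that on water, so a negative value means a lower fold change on azide.

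Among yolk genes, which were lower in the deletion on water, the difference was -4.08 for vit-2 (adjusted p = 0.0106), -3.98 for vit-6 (adjusted p = 0.0186) and -3.55 for vit-3 (adjusted p = 0.0475). The fold change of vit-2 was -5.09 on azide and -1.03 on water. Among heat shock genes it was -2.15 for hsp-70 (adjusted p = 1.93e-04) and -1.53 for hsp-16.2 (adjusted p = 0.0293), so both had a smaller rise on azide. ZK1193.2 had a difference of -1.08 (adjusted p = 0.0183), F19B2.5 one of -0.88 (adjusted p = 0.009) and acdh-2, an acyl-CoA dehydrogenase, one of -1.88 (adjusted p = 0.0014).

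Other genes that were higher on water had a larger rise on azide. The difference was 2.12 for dpf-6 (adjusted p = 1.83e-04), 1.51 for crf-1 (adjusted p = 0.00159), 1.18 for flp-11 (adjusted p = 0.0135), 1.17 for flp-1 (adjusted p = 0.0184) and 1.00 for nlp-16 (adjusted p = 0.0253), the last 4 of which encode secreted peptides. It was 1.47 for fog-3 (adjusted p = 0.018), 1.59 for nas-6, an astacin protease (adjusted p = 0.00897), 1.895 for C36C5.14 (adjusted p = 0.0237), 1.58 for T19H12.6 (adjusted p = 0.00538) and 0.93 for Y87G2A.19 (adjusted p = 0.0375).

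Genes that were lower on water made up the rest. The difference was 5.52 for dmd-3 (adjusted p = 9.66e-04), 2.95 for nhr-74 (adjusted p = 2.19e-04), 2.27 for cdh-3 (adjusted p = 5.37e-04), 1.47 for gst-24, a glutathione transferase (adjusted p = 0.00395), and 0.90 for haf-4 (adjusted p = 0.00939). The lectins clec-210 and clec-186 had differences of 2.15 (adjusted p = 0.00675) and 0.69 (adjusted p = 0.0077), and aat-1 had 0.82 (adjusted p = 0.0367). dlhd-1 had 1.93 (adjusted p = 0.045) and had too few reads to be tested on azide alone. cutl-7 had a fitted difference of 8.09 (adjusted p = 0.0475), which rests on 0 counts in the deletion on water and is no bound. It had 11, 1 and 1 counts in the deletion on azide and 16, 10 and 24 counts in wild type on azide.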

How the results depend on the processing

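With DESeq2's size factors (RLE) in place of TMM, 179 genes were higher and 206 lower, and 204 were called alike on azide. With upper-quartile factors these were 199, 153 and 196. Centring on neuron markers gave 226 higher, 460 lower and 395 alike, on muscle markers 105, 442 and 170, and on ribosomal protein genes 1054, 88 and 456. The share of higher genes among the calls was 47.01% with TMM and 32.9%, 19.2% and 92.3% under those centrings. Without a filter on low counts the counts were 223, 303 and 238, and with a minimum of 5 CPM in 3 libraries 108, 115 and 107. DESeq2 gave 375 higher, 500 lower and 437 alike. A fit of all 12 libraries gave 112 higher and 114 lower. A threshold of 1 on the absolute log2 fold change, chosen after seeing the data, left 68 higher and 70 lower. Leaving out 1 water library gave 25 to 268 higher, 36 to 247 lower and 37 to 274 alike, the lowest without wild-type replicate 3 or deletion replicate 1 and the highest without deletion replicate 2. Leaving out 1 azide library, also chosen after seeing the data, gave 140 to 217 alike. With a replicate block 79 genes were higher, 102 lower and 108 alike. The replicate numbers are not described as shared cultures or days, and deviations of libraries with the same number had correlations of 0.0628, -0.122 and 0.0418, so they were not taken as pairs.

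No called gene named here changed direction under any setting run. Of 148 such genes, 148 were called with RLE factors and with DESeq2, 140 with upper-quartile factors, 143 without a filter, 130, 118 and 121 under the neuron, muscle and ribosomal protein centrings, 93 with the replicate block and 81 in the fit of all 12 libraries. Of the 119 that passed the 5 CPM filter, 98 were called. Leaving out 1 water library left 61 to 127. The cause of these differences was not tested. Genes with few counts limit what can be read from fold changes, and the searches for miR-71 sites and promoter motifs were not run.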

Other observations

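Astacin proteases, secreted zinc metalloproteases of which many act in the cuticle or gut, had 3 members higher and 0 lower of 30 tested, with a median log2 fold change of 0.23 that stayed positive under every scaling tried. nas-4 had 12.76, 15.29 and 15.74 CPM in the deletion, against 5.057, 6.755 and 7.966 CPM in wild type (log2 fold change 1.14, SE 0.184, edgeR adjusted p = 0.016), and held without any 1 library. nas-6 had 10.94, 8.592 and 8.529 CPM in the deletion and 5.303, 4.632 and 5.677 CPM in wild type. The groups did not overlap in the 3 called astacins, as in every called gene. nas-6 and nas-12 were lost without wild-type replicate 1, 2 or 3 (adjusted p = 0.0891 to 0.169) or deletion replicate 1 (0.145 and 0.181), and nas-12 also without deletion replicate 3 (0.0594). Of 63 hedgehog-related and Patched-related genes 2 were higher. ptr-22 had 5.426, 6.889 and 5.635 CPM in the deletion and 1.522, 1.11 and 2.793 CPM in wild type, and grd-12 had 11.59, 10.61 and 9.849 CPM in the deletion and 5.598, 6.562 and 5.219 CPM in wild type. Both calls were lost without deletion replicate 1 (adjusted p = 0.0724 and 0.101) or wild-type replicate 1 (0.0811 and 0.0744), that of ptr-22 also without wild-type replicate 2 (0.0524) and that of grd-12 without wild-type replicate 3 (0.122).

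Detoxification genes changed in both directions. Of 90 tested glucuronosyl and glutathione transferases, enzymes that conjugate foreign compounds, 3 were higher and 4 lower. ugt-8 had 65.59, 84.88 and 54.93 CPM in the deletion and 29.85, 34.5 and 29.99 CPM in wild type (log2 fold change 1.12, adjusted p = 0.00776), and was lost without wild-type replicate 3 (0.0571). Its neighbour ugt-14 had 2.127, 1.78 and 2.742 CPM in the deletion and 0.638, 0.965 and 0.824 CPM in wild type (1.44, adjusted p = 0.0464). gst-24 had 2.735, 2.593 and 2.945 CPM in the deletion and 4.763, 5.452 and 4.99 CPM in wild type (-0.88, adjusted p = 0.0402). The calls of ugt-14 and gst-24 held in 1 and 0 of the 6 fits that leave out a library. Of the called genes in general, 47 lay in 22 runs of neighbours with the same direction, 11 runs of 25 higher genes and 11 of 22 lower genes. The C36C5 run on chromosome V holds 3 uncharacterized genes with a log2 fold change of 0.96 to 1.21. Their groups did not overlap, as in every called gene. C36C5.5 held in 4 of the 6 fits that leave out a library, C36C5.14 in 3 and C36C5.12 in 0.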
